A study of Mus musculus with 2 samples.

Results

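Matrix metalloproteases are zinc-dependent enzymes that cut collagens, elastin, fibronectin and many proteins of the cell surface. They are made as inactive proenzymes, and the tissue inhibitors of metalloproteases (Timp proteins) bind the active enzymes and block them, so the balance of both families sets how fast matrix is broken down. In injured kidney both families are known to be made by tubule cells, fibroblasts and infiltrating leukocytes. The 9 genes described here were 3 inhibitors (Timp1, Timp2 and Timp3), the gelatinases Mmp2 and Mmp9, the short epithelial protease Mmp7 (matrilysin), the macrophage elastase Mmp12, the membrane-bound protease Mmp14, and Adamts1, a secreted protease with thrombospondin repeats that cuts proteoglycans. The set was taken by gene name from the array, after earlier results of these data were known, and made up 9 of the 16698 genes measured.

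The RNA came from kidneys of male CD-1 mice that were 7 weeks old at the start, on an AIN-93G diet. In the HMPA condition the diet held 0.2% adenine by weight (2 g per kg) plus 2% by weight of HMPA for 1 week. HMPA is a phenolic acid, 3-(4-hydroxy-3-methoxyphenyl)propionic acid. In the condition called adenine alone it held the same adenine without HMPA. Adenine, which all mice of both conditions ate, forms crystals in the tubules and is used to model chronic kidney disease. By the titles of the samples the mice were 12 weeks old and numbered 5, and whether that number is per diet or pooled is unstated. No kidney from a diet without adenine was analysed here, so nothing below shows what adenine did to these genes.

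Both conditions were hybridised together on each of 2 dual-colour arrays. HMPA carried Cy5 and adenine alone Cy3 on array 1, and the dyes were swapped on array 2. Since no label ties an array to animals or extracts of its own, the arrays were treated as a dye swap of 1 RNA sample per condition. No p-value was computed, and the spread between animals is unknown. Figures after ± show how far each array lay from the mean of both. Statements that the conditions did not overlap set 2 values against 2. The share of all genes separated in this way was not counted. Such statements therefore only describe the values printed beside them, and do not set these genes apart from others. Genes were called lower or higher by a rule of size, not a test: their mean ratio had to reach 2-fold, and each array alone 1.5-fold the same way. Over all measured genes the log2 ratio had a median of -0.04, and an array lay a median of 0.108 from the mean. Of gene spots, 57.9% and 61.2% were well above background in the HMPA channels and 60.9% and 67.9% in the adenine channels, and 0 were saturated.

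The 9 genes were measured by 13 probes of 60 bases, printed as 22 spots, and all 13 probes passed the filter on dim probes. Timp1, Mmp14, Adamts1 and Mmp9 were each covered at different positions by a pair of probes. The dimmer probe of Timp1, Mmp14 and Adamts1 is shown, because its ratio is set against that of the brighter probe below, and the brighter Mmp9 and the only Mmp12 probe are shown because their ratios depended most on the background correction. The sequences are those of the array design, 5′ to 3′ on the strand of the gene, and nothing in them is marked. The probes lie, on mouse build mm9, at chrX:20449905-20449964 (Timp1), chr14:55058775-55058834 (Mmp14), chr16:85796191-85796250 on the minus strand (Adamts1), chr2:164780303-164780362 (Mmp9) and chr9:7354810-7355325 (Mmp12). The Mmp12 probe spreads over 516 positions for its 60 bases, so its bases are not contiguous in the genome. Exon and UTR were not assigned.
Timp1 probe: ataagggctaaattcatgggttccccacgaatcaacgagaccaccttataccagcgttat
Mmp14 probe: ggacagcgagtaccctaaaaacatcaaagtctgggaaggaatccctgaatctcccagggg
Adamts1 probe: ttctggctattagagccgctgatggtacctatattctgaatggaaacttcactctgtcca
Mmp9 probe: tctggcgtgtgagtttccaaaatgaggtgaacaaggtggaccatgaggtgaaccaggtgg
Mmp12 probe: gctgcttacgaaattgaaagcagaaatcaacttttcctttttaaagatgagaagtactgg

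The start regions of 7 of the 9 genes were found in RefSeq's promoter table of build GRCm38.p6, as 9 windows from 250 bases before to 50 bases after a transcript start. Mmp2 and Mmp9 were not matched. Each window was searched on both strands for TGANTCA, the letters bound by the AP-1 family (Fos and Jun proteins), for AGGAAG, the letters bound by PEA3 factors of the Ets family, for GGGCGG, bound by Sp1, and for TATAAA, the TATA box. The matches in the windows printed below did not overlap one another. The letters TGANTCA were in 7.81% of all 32851 windows of the table and in 2 of the 9 windows. Those windows belong to Mmp7 and Mmp12, which each have a further window without these letters. AGGAAG was in 35.4% of all windows and in 6 of the 9 (5 genes), GGGCGG in 35.7% and in 5 of the 9 (5 genes), and TATAAA in 13.6% and in 3 of the 9 (Mmp7, Mmp12 and Adamts1). A match describes the letters only.

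The 250 bases before the start are printed for Timp1 and Timp3, inhibitors of the same family whose ratios had opposite signs, and for Mmp7 and Mmp12. For Mmp7 and Mmp12 only the window that holds the AP-1 letters is printed. Capitals mark the motifs above, in the orientation of the gene. The windows are chr9:7691840-7692089 (Mmp7), chr9:7347124-7347373 (Mmp12), chrX:20869916-20870165 (Timp1) and chr10:86300162-86300411 (Timp3), all on the plus strand of GRCm38.p6. Positions are those of a motif's first base, counted back from the start. In Mmp7 the AP-1 letters TGAGTCA were at -63, PEA3 letters read from the other strand at -108, and TATAAA at -123 and -26. In Mmp12 TGAGTCA was at -44. The Timp1 window had AGGAAG at -175 and -99 and Sp1 letters from the other strand at -8, and the Timp3 window had AGGAAG at -204 and Sp1 letters from the other strand at -15. Matches after the start were counted above but are not printed. They were TATAAA at 5 in Mmp12, AGGAAG at 41 in Timp1 and Sp1 letters from the other strand at 14 in Timp3.
Mmp7 upstream: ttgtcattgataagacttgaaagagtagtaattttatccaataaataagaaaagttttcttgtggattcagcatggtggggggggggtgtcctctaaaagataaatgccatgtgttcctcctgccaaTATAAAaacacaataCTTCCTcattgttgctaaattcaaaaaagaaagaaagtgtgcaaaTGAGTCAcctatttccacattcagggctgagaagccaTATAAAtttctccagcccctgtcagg
Mmp12 upstream: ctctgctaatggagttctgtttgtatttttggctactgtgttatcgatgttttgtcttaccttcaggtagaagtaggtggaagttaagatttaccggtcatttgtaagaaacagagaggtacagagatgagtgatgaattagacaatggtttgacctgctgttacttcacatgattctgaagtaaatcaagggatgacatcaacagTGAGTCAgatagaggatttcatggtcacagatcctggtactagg
Timp1 upstream: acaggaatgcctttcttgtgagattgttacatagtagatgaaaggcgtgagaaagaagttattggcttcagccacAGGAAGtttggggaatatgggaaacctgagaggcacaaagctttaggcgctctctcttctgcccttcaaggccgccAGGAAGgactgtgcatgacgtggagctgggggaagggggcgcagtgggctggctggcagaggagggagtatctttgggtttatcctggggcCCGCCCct
Timp3 upstream: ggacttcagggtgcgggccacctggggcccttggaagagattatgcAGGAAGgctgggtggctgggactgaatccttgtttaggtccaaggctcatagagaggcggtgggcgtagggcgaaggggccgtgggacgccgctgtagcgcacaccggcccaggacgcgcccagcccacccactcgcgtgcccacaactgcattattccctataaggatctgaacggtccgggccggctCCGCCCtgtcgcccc

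Of the 9 genes, 7 were lower with HMPA than with adenine alone by the rule of size (Timp1, Timp2, Mmp2, Mmp7, Mmp12, Mmp14 and Adamts1), 0 were higher, and Timp3 and Mmp9 met it in neither direction. Among all measured genes the same rule counted 7.72% as lower and 6.64% as higher. The median log2 ratio of the 9 was -2.23, and 4 of the 5 Mmp genes and 2 of the 3 Timp genes were lower. A stricter rule, at least 4-fold on the mean and 2-fold on each array, counted 5 of the 9 as lower (Timp1, Timp2, Mmp7, Mmp14 and Adamts1), beside 1.35% of all genes. The kidney RNA was bulk RNA, so fewer cells of a type and less RNA per cell cannot be told apart in any of these ratios.

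**Figure D1:**
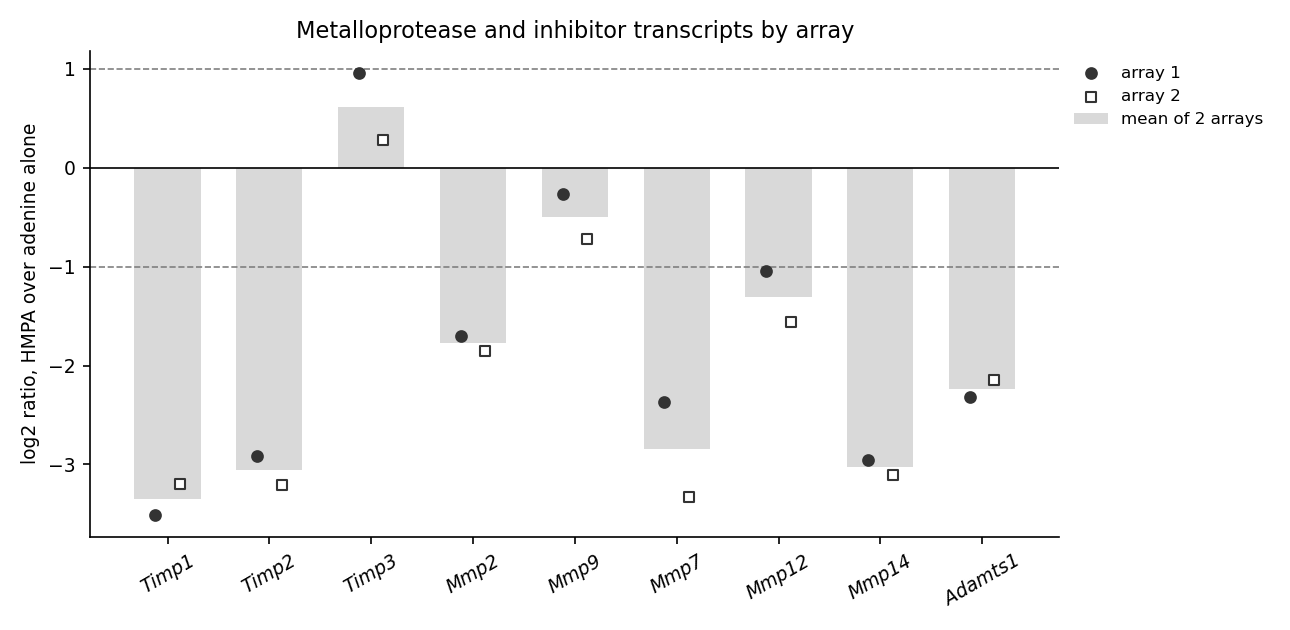
The vertical axis is the log2 ratio of HMPA over adenine alone, with a bar for the mean of both arrays, a filled circle for array 1 and an open square for array 2; dashed lines mark 2-fold. Timp1, Timp2 and Mmp14 reach about -3 on both arrays, Mmp7 has the widest gap between its arrays, and Timp3 is the only gene above 0.

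Timp1 and Timp2 had ratios far below that of Timp3. Timp1, the inducible inhibitor that is also released as a cytokine-like protein in injured kidney, had a normalised intensity of 1998 on array 1 and 2108 on array 2 with HMPA, against 22713 and 19353 with adenine alone. The conditions did not overlap. Timp1 had a log2 ratio of -3.35 ± 0.15, a 10.2-fold lower signal, and ranked 11 from the lowest of the 16698 genes. That value comes from the probe at chrX:20451675-20451733 (mm9, plus strand). The second Timp1 probe, printed above and some way upstream in the gene, had intensities of 285 and 305 with HMPA, against 1580 and 1517 with adenine alone, a log2 ratio of -2.39 ± 0.08. Both Timp1 probes were thus lower with HMPA on both arrays, the dimmer one by less.

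Timp2, an inhibitor that is usually expressed at a steady level and that also takes part in the activation of pro-Mmp2 on the cell surface, had intensities of 2722 and 1794 with HMPA, against 20467 and 16574 with adenine alone. All values with adenine alone lay above those with HMPA. Its log2 ratio was -3.06 ± 0.15, an 8.34-fold lower signal, rank 20 from the lowest, from 1 probe at chr11:118163146-118163205 (mm9, minus strand). The log2 ratio of Timp1 less that of Timp2 was -0.60 on array 1 and 0.01 on array 2, so the order of these inhibitors was not settled by the arrays.

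Timp3, the inhibitor that is bound to the matrix and also blocks Adam and Adamts proteases, had the opposite sign. Its intensities were 46508 and 39188 with HMPA, against 23899 and 32291 with adenine alone. Each HMPA value exceeded both adenine values. On the log2 scale the ratio was 0.62 ± 0.34, a 1.54-fold higher signal, but it was 1.95-fold on array 1 and 1.21-fold on array 2, so the rule of size was not met. Of all measured genes, 7.19% had a larger distance between array and mean than Timp3. Its probe lies at chr10:85811696-85811755 (mm9, plus strand) and ranked 2193 from the highest. The gap between Timp1 and Timp3 was -4.47 on array 1 and -3.48 on array 2 on the log2 scale, and the gap between Timp2 and Timp3 was -3.87 and -3.49, each well beyond the summed distances of the arrays (0.495 and 0.489).

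**Figure D2:**
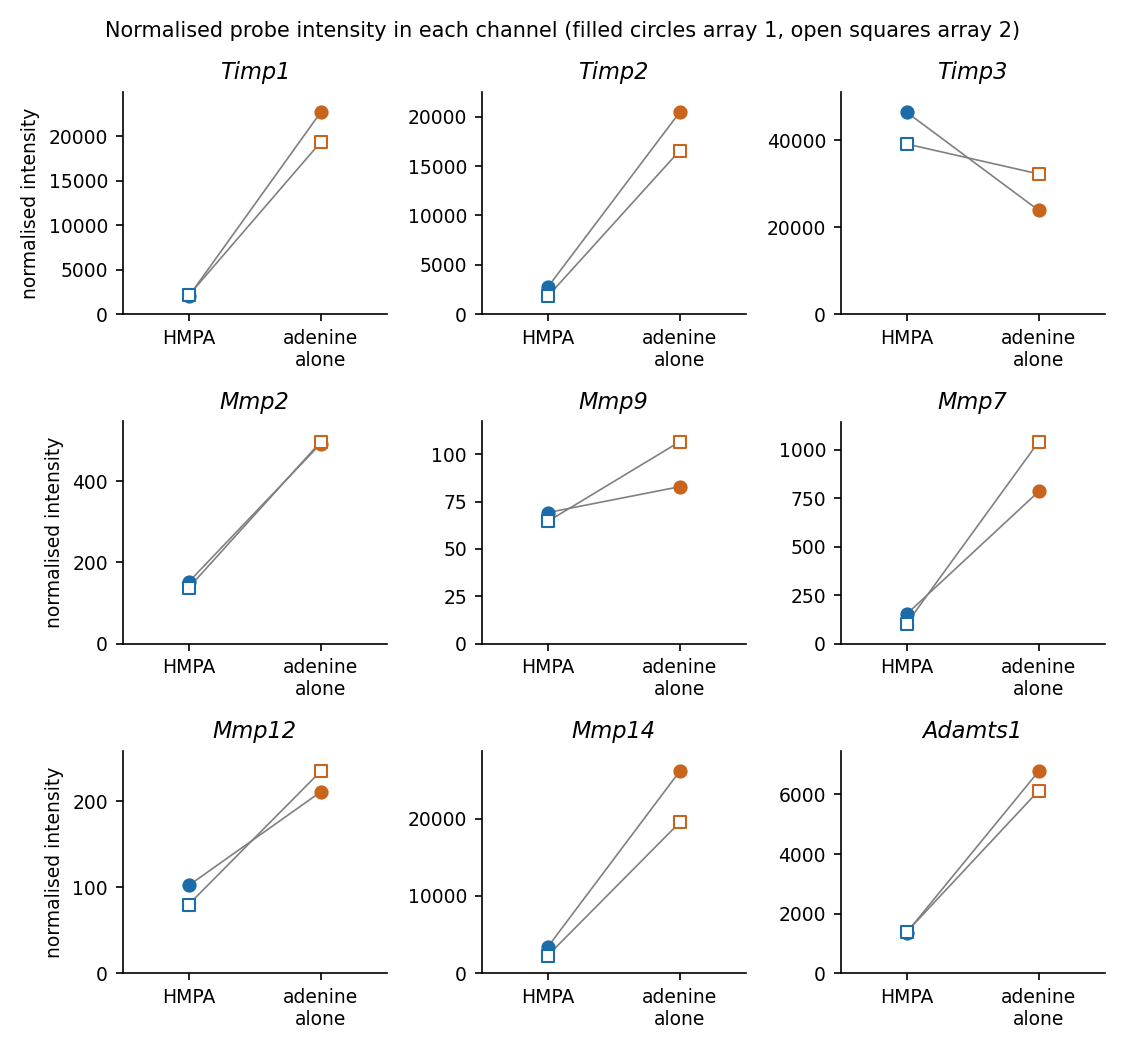
Each panel shows 1 gene, with normalised intensity (linear, from 0) on the vertical axis and HMPA left of adenine alone; filled circles are array 1, open squares array 2, and lines join the channels of an array. The lines climb to adenine alone in every panel but Timp3, and the Mmp9 panel spans only 64.5 to 107.

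Mmp14 is the membrane-type protease that cuts fibrillar collagen at the cell surface and activates pro-Mmp2. As processed here it had the lowest mean ratio of the proteases described, though not one the arrays set apart from Mmp7. Mmp7 was the lower of these 2 genes with median centring (-3.18 against -3.09), an offset of 10 (-3.37 against -2.98) and the deposited ratios (-3.60 against -2.97). The intensities of Mmp14 were 3374 and 2270 with HMPA, against 26129 and 19501 with adenine alone, and the conditions did not overlap. This gave a log2 ratio of -3.03 ± 0.07, 8.16-fold lower, rank 25 from the lowest, from a probe at chr14:55059969-55060028 (mm9, plus strand). The second Mmp14 probe, printed above, was dimmer, with 113 and 82.0 with HMPA, against 351 and 393 with adenine alone. Its log2 ratio was -1.95 ± 0.31, in the same direction.

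The log2 ratio of Timp2 less that of Mmp14 was 0.04 on array 1 and -0.10 on array 2, a gap within the arrays' distances. These proteins meet on the cell surface in the complex that binds pro-Mmp2, and by the brighter Mmp14 probe these arrays did not separate their ratios. The dimmer Mmp14 probe, at -1.64 on array 1 and -2.26 on array 2, was less low than Timp2, at -2.91 and -3.21. The likeness thus depended on the probe, but the added offset draws the ratio of the dimmer probe toward 0. A difference between the Mmp14 probes was therefore not settled. Timp3 less Mmp14 was 3.91 on array 1 and 3.38 on array 2.

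Mmp2 itself, the gelatinase made mainly by mesenchymal cells, had intensities of 152 and 137 with HMPA, against 492 and 497 with adenine alone. The values of a condition lay close together on both arrays and far from those of the other condition. Mmp2 had a log2 ratio of -1.78 ± 0.08, 3.42-fold lower, rank 340, from 1 probe at chr8:95376840-95376899 (mm9, plus strand). By its brighter probe Mmp14 was thus lower than its substrate Mmp2 by 1.26 on array 1 and 1.25 on array 2 (log2 difference of the ratios). This gap depended on processing and probe. Mmp2 was at -2.14 with an offset of 10 and -2.21 by the deposited ratios, against -2.98 and -2.97 for Mmp14. The dimmer Mmp14 probe was at -1.64 on array 1 and -2.26 on array 2, against -1.70 and -1.85 for Mmp2. Both of these probes were dim, and the added offset draws such ratios toward 0.

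Mmp9, the gelatinase of neutrophils and macrophages, gave a signal near background. Its brighter probe had intensities of 69.2 and 64.5 with HMPA, against 82.9 and 107 with adenine alone, on a scale whose zero signal sits near the offset of 50 that was added in background correction. With HMPA this probe was well above background on 1 of the 2 arrays, so Mmp9 passed the filter through adenine alone. The log2 ratio was -0.26 on array 1 and -0.72 on array 2, mean -0.49 ± 0.23, 1.41-fold lower, and the rule of size was not met. With an offset of 10 the mean was -1.02, and by the ratios that the scanner software deposited it was -2.06, and both met the rule as lower. An added offset draws the ratio of a dim probe toward 0 by construction, so the size of the Mmp9 difference was not settled at this signal.

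The second Mmp9 probe (chr2:164780620-164780679, mm9, plus strand) was printed 10 times on each array. Its mean intensities were 61.8 and 57.4 with HMPA, against 74.5 and 76.5 with adenine alone. With HMPA 0 of 10 spots on array 1 and 1 of 10 on array 2 were well above background, against 10 of 10 on both arrays with adenine alone. A probe not above background in a condition has no reliable level there. By this probe Mmp9 measured 1.27-fold lower with HMPA (log2 ratio -0.34 ± 0.07), with -0.27 on array 1 and -0.41 on array 2. That size was not settled, because the HMPA signal lay at background. The repeat spots ranged from -0.34 to -0.18 on array 1 (SD 0.05, 10 spots) and from -0.55 to -0.30 on array 2 (SD 0.07, 9 spots used). All repeat spots used were below 0, and the spread between spots was smaller than the distance of either array from 0, but repeat spots share 1 RNA sample.

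Mmp7, which epithelial cells secrete and which cuts E-cadherin, Fas ligand and proteoglycans, had intensities of 152 and 104 with HMPA, against 785 and 1042 with adenine alone. The conditions did not overlap, but the arrays gave different sizes: a log2 ratio of -2.37 on array 1 and of -3.33 on array 2. Over both arrays it was -2.85 ± 0.48, 7.19-fold lower, rank 41, and 1.53% of all genes had a larger distance between array and mean. Its probe lies at chr9:7697641-7697700 (mm9, plus strand). With this distance Mmp7 could not be ordered against Timp1, Timp2 or Mmp14: Timp1 less Mmp7, for example, was -1.14 on array 1 and 0.13 on array 2. The Mmp7 ratio also moved with the background correction, to -3.37 with an offset of 10 and to -3.60 by the deposited ratios.

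Mmp12, the elastase that macrophages secrete, had intensities of 102 and 79.8 with HMPA, against 211 and 235 with adenine alone. The conditions did not overlap, though the HMPA values lay close to the added offset. Its log2 ratio was -1.05 on array 1 and -1.56 on array 2, mean -1.30 ± 0.25, 2.47-fold lower, rank 771. Mmp12 met the rule under all 10 alternatives of processing, but its size moved with the background correction, to -1.90 with an offset of 10 and to -2.41 by the deposited ratios.

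Adamts1, which cuts versican and aggrecan and is induced by inflammatory signals, had intensities of 1362 and 1382 with HMPA, against 6780 and 6129 with adenine alone. The channels of a condition lay close together and the conditions did not overlap. Adamts1 had a log2 ratio of -2.23 ± 0.08, 4.70-fold lower, rank 142, from a probe at chr16:85795044-85795103 (mm9, minus strand). The dimmer Adamts1 probe, printed above, had 141 and 121 with HMPA, against 292 and 254 with adenine alone. Its log2 ratio was -1.06 ± 0.01, so as processed the probes differed in size by more than the arrays did, and the mean over both was -1.65. The added offset draws the ratio of the dimmer probe toward 0, so a difference between the Adamts1 probes was not settled.

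**Figure D3:**
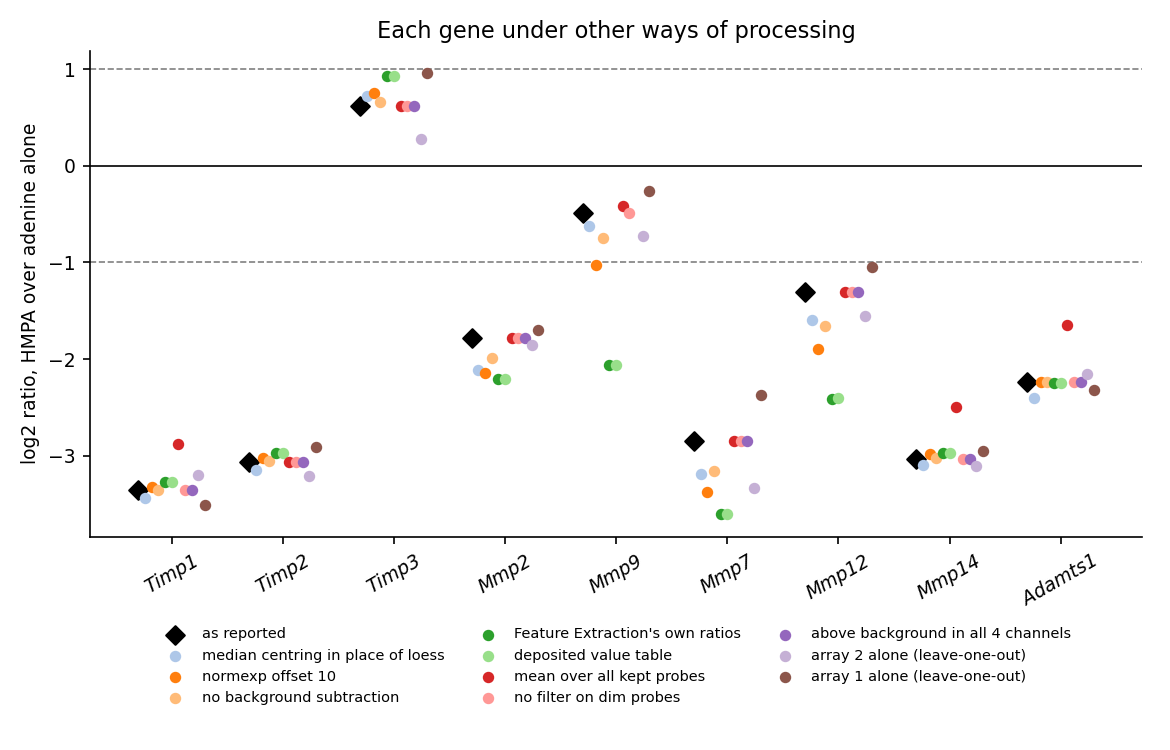
The vertical axis is the log2 ratio of HMPA over adenine alone for each gene, as reported (black diamond) and under 10 alternatives (coloured points, named in the legend). No gene changes sign; Mmp9 spreads most, between -0.26 and -2.06, and is the only gene that changes sides of the rule.

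Mmp7 and Mmp12 belong to a row of Mmp genes on mouse chromosome 9. The array held 8 genes of the row in 9 probes over 414.9 kb, from 7282762 to 7697700 on mm9, and no probe of another gene inside it. All genes of the row with a kept probe are given, whatever their value. In the order of the chromosome, Mmp13, the collagenase of cartilage and bone, had a log2 ratio of 0.23 ± 0.07, and Mmp12 came next with the value above. Mmp3, stromelysin, which activates several other pro-Mmps, had 157 and 161 with HMPA, against 1165 and 1040 with adenine alone, a log2 ratio of -2.79 ± 0.10.

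The neighbours toward Mmp7 were faint. Both probes of Mmp1a and the probe of Mmp20, the protease of tooth enamel, were not well above background in either condition. Mmp10, stromelysin 2, was not above background with HMPA, at 59.5 and 56.4, against 64.2 and 68.9 with adenine alone. Its measured log2 ratio was -0.11 on array 1 and -0.29 on array 2. Mmp8, the neutrophil collagenase, was also not above background with HMPA, at 68.7 and 62.4, against 98.1 and 107 with adenine alone. The measured log2 ratio of Mmp8 was -0.52 on array 1 and -0.77 on array 2. The deposited ratios of Mmp10 and Mmp8 (-2.41 and -3.16) are set against HMPA signals at background, so for both genes the size of the difference was not settled. Of the 6 genes of the row with a kept probe, Mmp12, Mmp3 and Mmp7 met the rule as lower. Mmp13, at the end of the row opposite to Mmp7, had a ratio above 0 on both arrays, but -0.01 with median centring. Its signal was dim, at 113 and 111 with HMPA, against 101 and 90.7 with adenine alone.

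**Figure D4:**
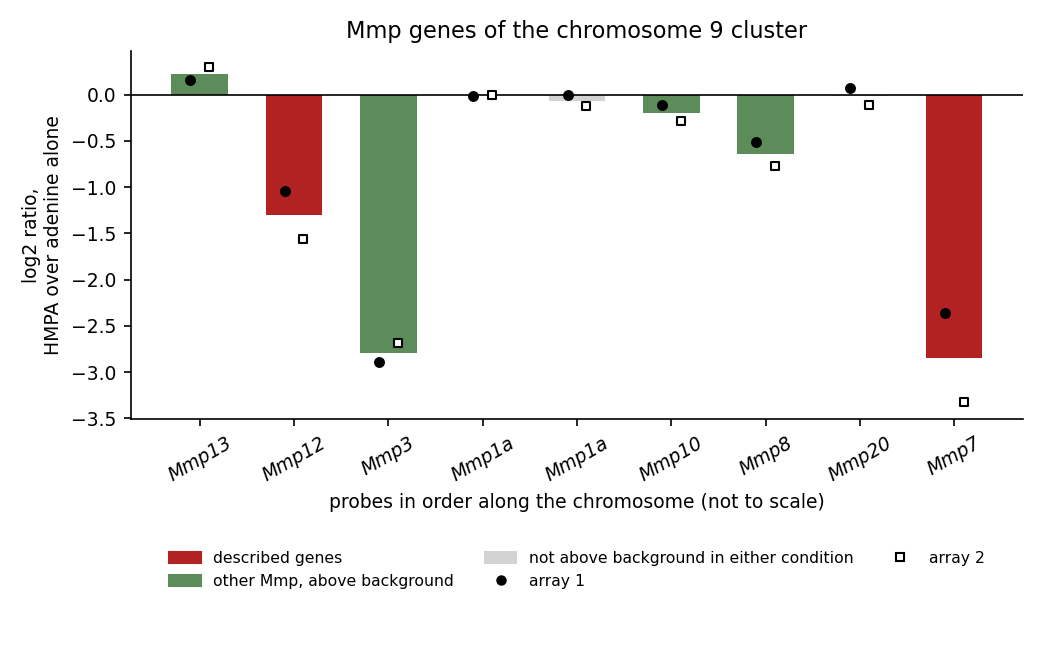
Bars give the mean log2 ratio of HMPA over adenine alone for the Mmp probes on chromosome 9 in their order along it, with array 1 as filled circles and array 2 as open squares. Mmp12, Mmp3 and Mmp7 are far below 0, Mmp13 is slightly above it, and grey marks probes not above background in either condition; Mmp10 and Mmp8 were not above background with HMPA.

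The rest of the family was counted by the same rule, which called 7.72% of all genes lower and 6.64% higher. By the deposited ratios the rule called 2459 of the 16698 genes lower and 2040 higher. Of 18 other Mmp genes listed, 16 were on the array and 9 were measured. Of these 9, 3 were lower and 0 higher. Their median log2 ratio of -0.20 is the value of Mmp10, which was not above background with HMPA, and among the 5 genes above background in all 4 channels the median was -1.25. Besides Mmp3 the genes called lower were Mmp11 (stromelysin 3) at -1.37 ± 0.03 and Mmp23 at -1.25 ± 0.14. Mmp13 at 0.23 ± 0.07 and Mmp17 at -0.14 ± 0.12 were also above background in all 4 channels and did not meet the rule. Of 7 other inhibitors measured, 0 were lower and 0 were higher (median -0.21). The inhibitors farthest from 0 were Tfpi2, a Kunitz-type inhibitor, at 0.97 ± 0.09, and Pcolce, an enhancer of procollagen cleavage related in its domain to the Timp proteins, at -0.71 ± 0.02. Timp4, the only Timp left, was at -0.02 ± 0.08, and Reck, a membrane-anchored inhibitor of Mmp2, Mmp9 and Mmp14, at -0.21 ± 0.12; these values were named after they were seen. With an offset of 10 Tfpi2 reached 1.31 and met the rule as higher.

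Among relatives of Adamts1, 6 of 19 measured Adamts and Adamtsl genes were lower and 0 were higher (median -0.48). By the deposited ratios 12 of 19 were lower, beside 2459 of all 16698 genes. Adamts10, Adamts20 and Adamtsl4 among the 19 were not above background with HMPA. The lowest were Adamts2, the procollagen N-proteinase, at -2.82 ± 0.26, Adamts16 at -1.71 ± 0.19 and Adamts12 at -1.60 ± 0.26. Adamts2 was at -1.86 over all its probes, and by the deposited ratios Adamts16 was at -2.48 and Adamts12 at -2.43. Of 11 Adam proteases 2 were lower and 0 higher: Adam8, a leukocyte surface protease, at -2.35 ± 0.47, and Adam19 at -1.10 ± 0.15. Adam19 missed the rule on array 1 alone (-0.95) and over all its probes (-0.91). Among 17 other secreted or membrane metalloproteases 1 was lower and 7 were higher. Bmp1, the procollagen C-proteinase, was at -1.83 ± 0.51, or -1.18 over all its probes. The highest were Mep1b at 3.40 ± 0.19 and Mep1a at 2.10 ± 0.22, the meprin subunits, and Dpep1, a dipeptidase, at 2.34 ± 0.14. With median centring in place of loess 3 of these 17 were higher.

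Of 22 activators, binders and receptors 10 were lower and 1 was higher (median -0.76). Lcn2, which binds Mmp9 and protects it from breakdown, was at -2.98 ± 0.03, Thbs1, which binds pro-Mmp2 and pro-Mmp9, at -2.51 ± 0.01, and Cd44, which holds Mmp9 and Mmp14 at the cell surface, at -2.18 ± 0.36. Thbs1 was at -1.33 over all its probes. Klk1, tissue kallikrein, which can activate pro-Mmps, was the gene that was higher, at 1.48 ± 0.04. Of 29 measured matrix and surface substrates 20 were lower and 0 were higher (median -1.44). Spp1 (osteopontin), a substrate of Mmp3 and Mmp7, was at -3.55 ± 0.0036, Col1a1 at -3.23 ± 0.17 and Col1a2 at -2.89 ± 0.27, and Col1a1 was at -1.86 when all its probes were averaged.

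Of 23 inducers and transcription factors of Mmp and Timp genes 11 were lower and 0 were higher (median -0.90). Il1b, a cytokine that induces several Mmp genes, was at -2.58 ± 0.04. Junb, an AP-1 subunit, was at -2.30 ± 0.68, with -1.62 on array 1 and -2.98 on array 2, and Fosl2, another AP-1 subunit, at -1.59 ± 0.45, or -0.88 over all its probes. All these lists were chosen with earlier results of these data known, and a count does not test whether a list differs from the other genes.

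**Figure D5:**
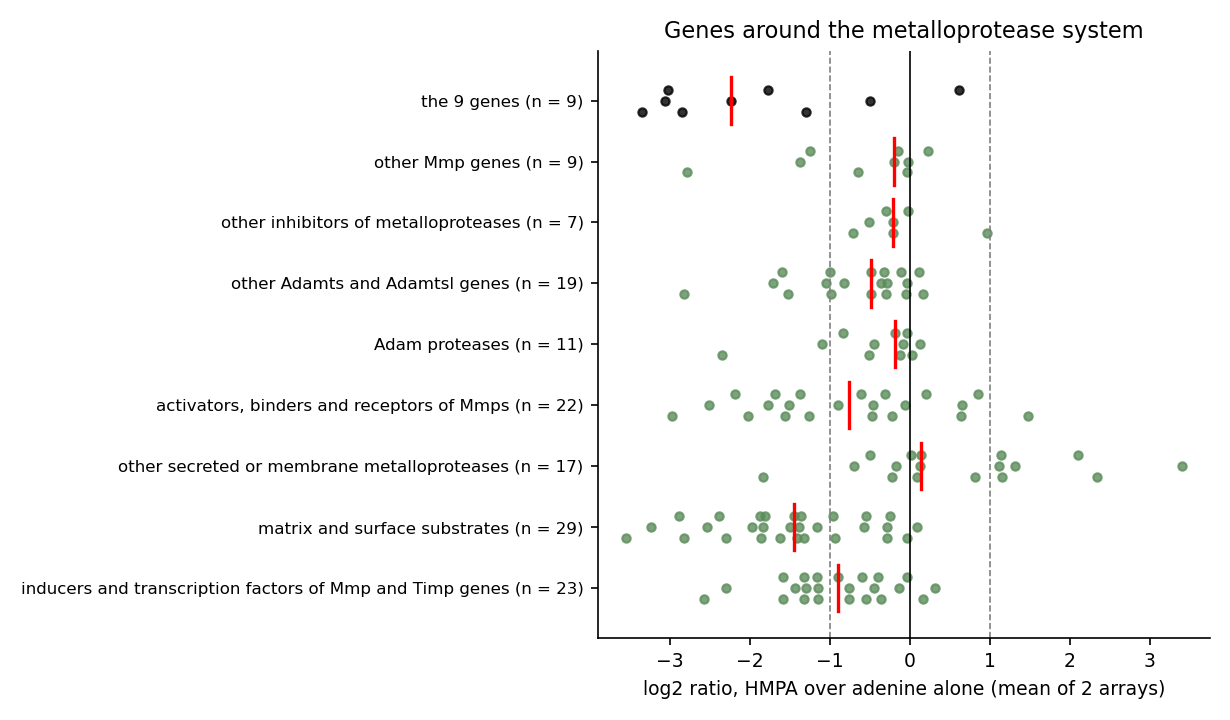
Each point is the mean log2 ratio of HMPA over adenine alone of 1 gene, each row a list with the number of genes measured, the red tick its median, and dashed lines 2-fold. The 9 genes have a median of -2.23, the substrates -1.44, the other inhibitors -0.21 and the other Mmp genes -0.20, or -1.25 without the other Mmp genes that were not above background in all 4 channels. Several of the other inhibitors, Timp4 among them, were dim.

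Markers of several cell types that can make these proteins were lower too. All 14 of 14 macrophage markers were lower with HMPA (median -2.11), with summed intensities of 18434 to 21724 with HMPA, against 126379 to 127196 with adenine alone. Of 8 measured neutrophil markers 5 were lower (median -1.26, or -2.99 with 6 lower by the deposited ratios), with sums of 1412 to 1443 with HMPA, against 9658 to 10565 with adenine alone, while the granule genes Elane and Camp were not above background in either condition. Of 10 fibroblast markers 9 were lower (median -1.83), with sums of 15037 to 19508 with HMPA, against 98181 to 104590 with adenine alone. Of 10 injured tubule markers 9 were lower (median -2.64), with sums of 21511 to 25314 with HMPA, against 149906 to 162042 with adenine alone. Havcr1 (Kim-1) was the marker of injured tubule that was higher, at 1.07, or 0.76 and short of the rule with median centring. Each sum adds probes of unlike brightness and is weighted to its brightest ones, so it is not a level of a cell type. Spp1 alone gave 104928 on array 1 and 89516 on array 2 with adenine alone within the injured tubule sums. Lcn2 stands in both the neutrophil and the injured tubule list.

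Other marker lists differed in direction. Of 12 proximal tubule markers 11 were higher and 0 lower (median 2.70), with sums of 324571 to 330458 with HMPA, against 36945 to 52238 with adenine alone, so kidney tubule transcripts were present in both conditions. Higher too were 4 of 7 markers of distal tubule and Henle's loop and 5 of 7 measured markers of collecting duct, and 1 of 6 podocyte markers was lower. That marker, Synpo, missed the rule on array 1 alone and over all its probes, which leaves 0 of 6. Of 9 endothelial and 7 measured lymphocyte markers 0 were lower and 0 higher. Of 7 measured adipocyte markers 3 were lower (median -0.99, or -2.87 with 4 lower by the deposited ratios), with sums of 4502 to 6296 with HMPA, against 18194 to 19402 with adenine alone, and Lep was not above background in either condition. Lcn2, Spp1, Col1a1, Col1a2, Dcn, Postn and Lum each stand in a marker list and in a list of the metalloprotease system above. The part of these cell types in the ratios of the 9 genes was not tested.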

How the data were processed

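Kidney RNA of the 2 conditions was measured on 2 dual-colour arrays, 1 slide and 1 scan. Per the file headers, the authors quantified spots in Feature Extraction, version 12.2.0.7, and the submitters' processing notes give 9.5. Spot signals and local backgrounds were deposited as intensity, not normalised. The deposited ratio is log10 of Cy5 over Cy3 after the software's background subtraction and dye normalisation, and the value table's log10 ratios matched it within 0.00498 on array 1 and 0.00499 on array 2.

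Mean signals were corrected with limma 3.58.1 in R 4.3.3 (normexp, offset 50) and normalised by loess within each array, with control and outlier-flagged spots at weight 0 (281 and 297 gene spots flagged). Spots of a probe were averaged and ratios turned to HMPA over adenine alone. A probe was kept where 1 condition was well above background on array 1 and array 2 alike (25138 of 41174), and a gene took its kept probe of highest mean signal. Normalised intensity is per channel after loess and Aquantile, and levels of different probes were not compared, though those of each marker list were summed. For a probe dim in 1 condition, the bright condition's mean was set against the higher of the dim signal and the background floor. For Mmp8, Mmp10 and the second Mmp9 probe this equals the measured ratio, so it gives no separate bound. The number of arrays limits the precision. Kept probes were named through a RefSeq table (21374 by accession, 1932 by symbol, 8 by older symbol, and 1824 by the file).

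The 9 genes and all lists were chosen with earlier results of these data known. From each list the text names up to 3 lowest and 3 highest genes that met the rule of size, or, where fewer than 2 met it, those 2 farthest from 0. Cell type marker lists are given by their counts instead, and the markers named in them were picked after their values were seen. Alternatives covered centring, offset, background, the deposited ratios, probe choice, filters and single arrays. The procedure was tested on simulated data. Counts and plots were made in Python 3.11.15 (numpy 2.4.6; pandas 2.3.3; plotting by matplotlib 3.10.9).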

Additional observations from a re-analysis of the deposited data

How the results depend on the processing

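No gene of the 9 changed sign under any alternative, and the count of lower genes was 7 with either array left out (range 7 to 7) and 8 of 9 with an offset of 10 or the deposited ratios, where Mmp9 was added. It was 5 with the stricter rule of 4-fold. The median of the 9 (-2.23) was -2.40 with median centring, -2.41 by the software's ratios and by the deposited table, -1.78 with the mean over probes, -2.54 with genes above background in all 4 channels, which gives Mmp9 no value, and between -2.32 and -2.15 with an array left out. With a rule of 1.5-fold, added after the data were seen, 1 gene, Timp3, was higher. The share of all genes higher by that rule was not counted, so the call of Timp3 has no background to be set against. Of all genes, 1289 were lower and 1109 higher, so 46.2% of calls were higher, against 27.5% with median centring (1973 lower, 749 higher), under which all genes had a median of -0.22 in place of -0.04. Lower genes numbered 1786 with an offset of 10, 2461 by the software's ratios, 2459 by the deposited table, 2771 with the 1.5-fold rule, 225 with the 4-fold rule and 1280 to 1484 with an array left out. Higher genes numbered 1487 with an offset of 10, 2043 by the software's ratios, 2040 by the deposited table and 1154 to 1253 with an array left out. Mmp7 was at -3.60 by the software's ratios. The causes of these shifts were not tested, beyond the offset, which draws dim ratios toward 0 by construction. Single-array values have no replicate. No paired analysis was possible because each array already holds both conditions and no test was run.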
